A study of Mus musculus with 12 samples.

Results

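The 43 genes described here encode contractile and Z-disc proteins found in fast skeletal muscle fibres, with their anchoring and assembly partners. Some, such as Actn2, Mybpc1 and Myom3, are not particular to fast fibres. The 43 genes were taken by gene symbol from a fixed list of 43 names, and all 43 were among the 10475 genes of the deposited expression table. No measured value entered that step, but the list was chosen with earlier results of these data known. Gastrocnemius muscle was taken from mice of the C57BL/6 background at 8 weeks of age. One genotype was wild type (WT) and the other was transgenic with E4BP4 overexpressed in the liver only (TG). Both were sampled at lights-on, zeitgeber time (ZT) 0, and at lights-off, ZT12. All mice received normal chow, without restricted feeding, under 12 h of light and 12 h of dark at a constant room temperature. Each of the 4 groups had 3 libraries of polyadenylated RNA, 12 in all. The labels number the libraries within a group and do not say that each came from a separate animal, so the p-values measure the spread between these libraries. E4BP4, encoded by Nfil3, is a repressor of the circadian system that binds D-box elements. The labels name no promoter for the transgene, and these muscle libraries do not measure it in liver. A difference between TG and WT here is therefore one between muscles of mice that differ in a liver gene.

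No member passed the test between TG and WT at either time, over both times, or for an unequal day-night difference of the genotypes. Between ZT0 and ZT12, over both genotypes, Pdlim3 rose 1.29-fold and was the only member called, near the threshold: the call was lost under both other scalings, with a trend over transcript length removed and without any of 4 libraries. Tcap, the titin cap gene, averaged lower at ZT12 in both genotypes and missed the threshold, but was called with that trend removed. In several libraries, most of all in TG ZT12, the members' levels moved in order of transcript length, in opposite directions within a group.

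The sarcomere is the repeating contractile unit of striated muscle. Thin filaments of actin, with tropomyosin and the troponin complex wound on them, slide past thick filaments of myosin when calcium binds troponin. Z-discs, built on alpha-actinin, anchor the thin filaments at each end of the unit, the M-band ties the thick filaments together at its centre, and titin spans from one to the other. Fast and slow fibres use different genes for most of these parts. The gastrocnemius of the mouse is a mainly fast muscle, and circadian transcription in muscle is known for metabolic genes and for some sarcomeric ones, Tcap among them.

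Levels are given as TPM, a read count scaled by transcript length and by the library total, so that genes can be compared within a library. Values of a group stand in the order of their replicate numbers. The reads of the listed genes, recovered from the values, numbered 9210508 to 13143773 in the ZT0 libraries and 13124190 to 20151811 in the ZT12 libraries. Depth and time of day therefore went largely together, and within ZT12 the WT libraries (from 17711372 reads) were all deeper than the TG libraries (up to 15775766 reads). The part of depth in any result was not tested, but counting error was small for the members, the lowest of which, Myom3, had at least 180 reads in every library. The tissue label fitted its markers: 8 skeletal muscle fibre genes summed to 67972 to 76958 TPM, and 1 of 6 cardiac markers was listed (Tnnt2, at 1.17 to 2.58 TPM). The table lists only genes at 1 TPM or more in WT ZT0 replicate 1. Liver, lymphocyte and satellite cell markers were not listed, which gives no level for them in the other libraries. Hemoglobin and other erythroid genes summed to 86.2 to 163 TPM in the ZT0 libraries and to 145 to 4565 TPM in the ZT12 libraries, and tendon markers to 48.1 to 172 TPM over all 12. In these bulk samples fewer fibres of a kind and less RNA per fibre cannot be told apart.

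The members made up a large share of the listed signal. Together they held 26.3% to 32.4% of the TPM of all listed genes, from 118434 to 141813 TPM in a library. The listed genes themselves summed to only 429014 to 450432 TPM in a library. Of the full total to which TPM is scaled, the members' share was 11.8% to 14.2%. Shares of the listed TPM are therefore larger than shares of the whole transcriptome. By mean level, 6 of the 10 highest genes of the table and 10 of the 20 highest were members. Another 12 members averaged under 100 TPM, so the list spanned from Acta1 at a mean of 23590.2 TPM to Myom3 at 4.21 TPM.

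**Figure D1:**
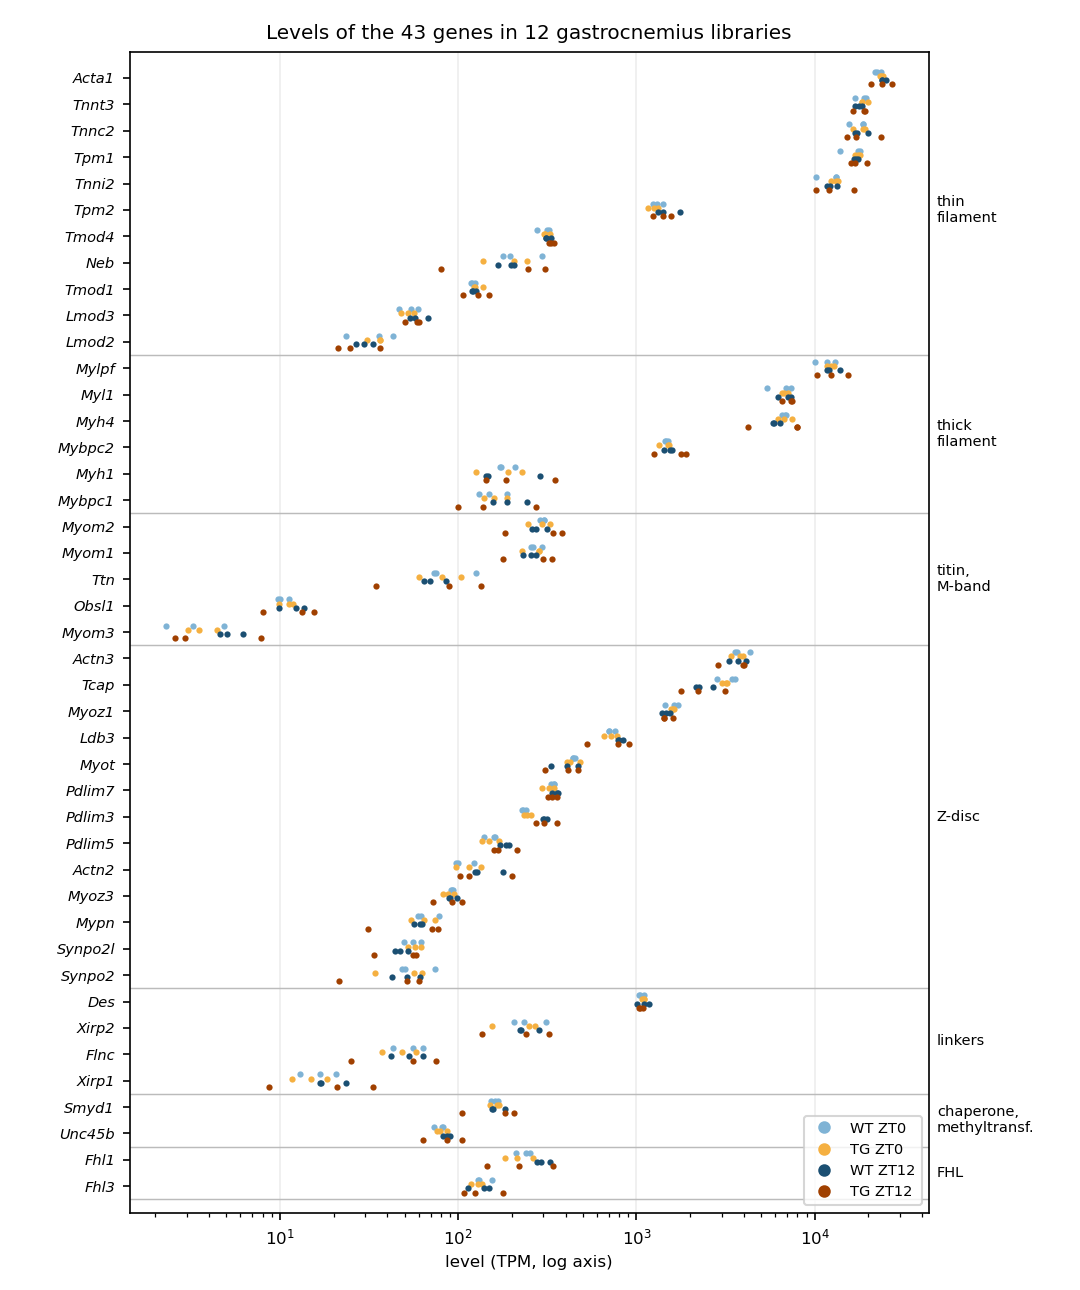
Level of each of the 43 members (TPM, log axis) in the 12 libraries, 1 point per library, coloured by group and ordered by role and by mean. Neb in TG ZT12 spans 80.5 to 305 TPM, its full range over the 12 libraries, and Pdlim3 is the one gene whose ZT12 points all lie above its ZT0 points.

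Libraries were found to differ in how the members' levels went with transcript length, and this has to be known before any group difference is read. Transcript lengths of the members, as the authors' tables give them, run from 643 bases for Mylpf to 81737 bases for Ttn, the gene of the giant elastic protein titin. For each library the log2 deviation of each member from its own mean over the 12 libraries was set against log2 length. In TG ZT12 replicate 1 the correlation over the 43 members was -0.88, and the deviation fell by 0.26 for each doubling of length. In TG ZT12 replicate 2 it was 0.75, with a gain of 0.18 per doubling, and in WT ZT0 replicate 2 it was 0.81, with a gain of 0.14. TG ZT0 replicate 1 and replicate 3 had correlations of 0.71 and -0.75, and the other 7 libraries lay between -0.43 and 0.25. These correlations describe the libraries, since the genes of a library are not independent points.

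The 13 members with transcripts over 4500 bases show the size of it. Their median deviation was -0.76 in TG ZT12 replicate 1, where 0 of 13 were above their own mean, and 0.49 in TG ZT12 replicate 2, where 13 of 13 were. The 12 members of up to 1500 bases had medians of 0.094 and -0.10 in the same libraries. Other genes of the table went the same way: among 66 others over 4500 bases with a mean of at least 50 TPM, the median was -0.61 in TG ZT12 replicate 1 and 0.33 in TG ZT12 replicate 2. Of the 43 members, 22 were at their lowest in TG ZT12 replicate 1 and 22 were at their highest in TG ZT12 replicate 2. Acta1 and Ldb3, with short transcripts of 1472 and 1493 bases, were among both. The same count was not made over all genes. Both libraries belong to one group, so its spread was wide. The pattern was not confined to the members, but it was weaker over all other genes in the libraries where it was strongest. Over 10372 other genes the correlation with length was -0.44 in TG ZT12 replicate 1 and 0.35 in TG ZT12 replicate 2. In WT ZT0 replicate 2 it was 0.13. The origin of the pattern was not tested.

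**Figure D2:**
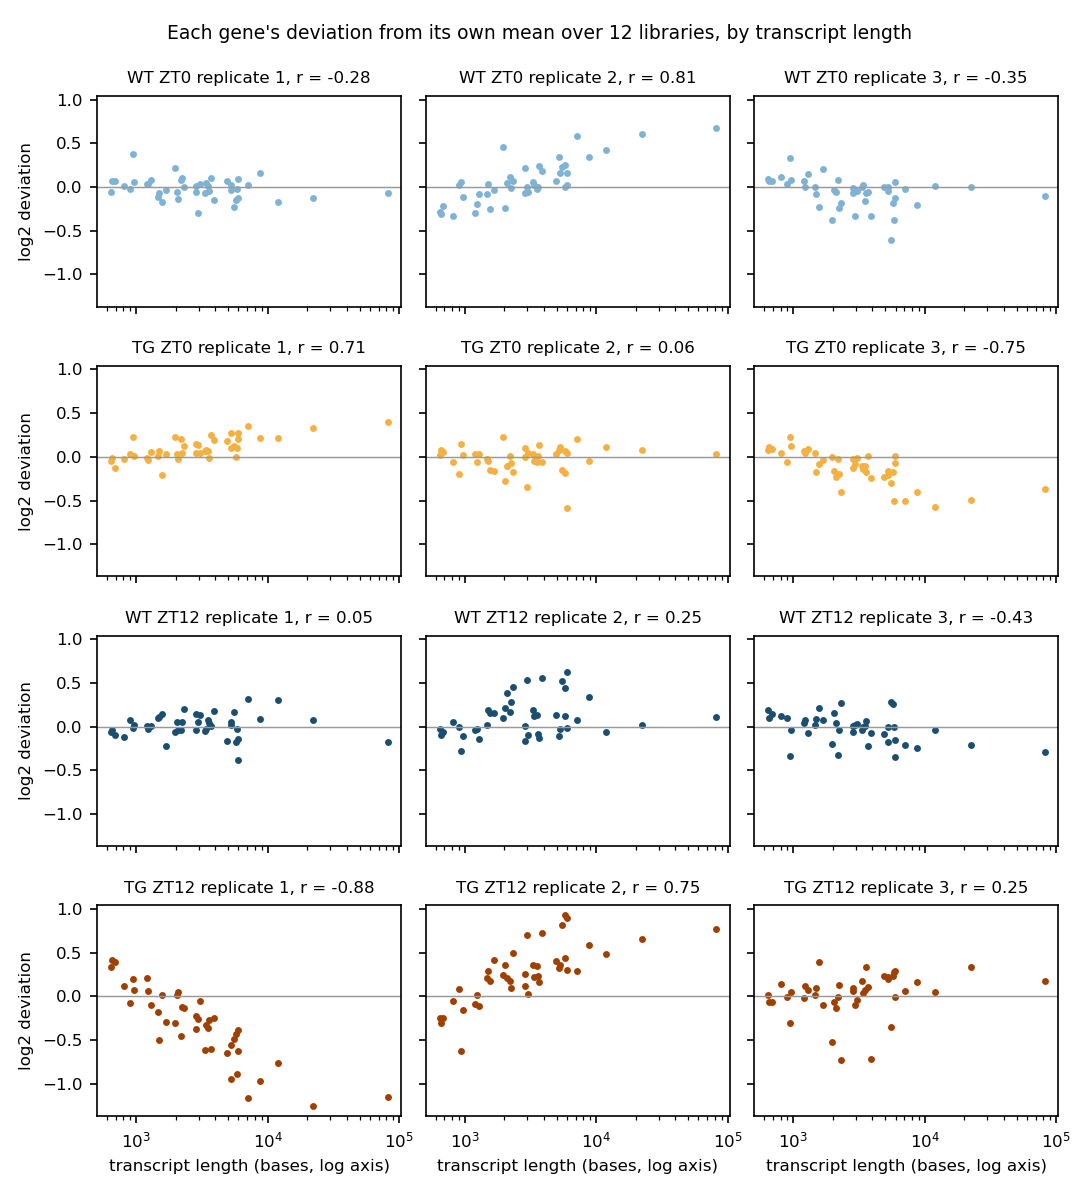
Log2 deviation of each member from its own mean over the 12 libraries, against transcript length in bases (log axis), 1 panel per library with the correlation over 43 members. Points slope downward in TG ZT12 replicate 1 (r = -0.88) and TG ZT0 replicate 3 (-0.75), upward in WT ZT0 replicate 2 (0.81), TG ZT12 replicate 2 (0.75) and TG ZT0 replicate 1 (0.71), and are near flat in WT ZT12 replicate 1 (0.05).

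Ttn and Neb, picked out after their values were seen because they are the longest members, carry the pattern most plainly. Ttn (chr2:76703984-76982547, minus strand, mm10) was at 75, 126 and 73.3 TPM at ZT0 and 69.5, 84.9 and 64 at ZT12 in WT, and 103, 80.6 and 60.4 at ZT0 and 34.7, 135 and 88.5 at ZT12 in TG. Its lowest and highest values were both in TG ZT12. Neb (chr2:52136647-52338798) encodes nebulin, which runs along the thin filament. It was at 177, 295 and 194 TPM at ZT0 and 205, 197 and 167 at ZT12 in WT, and 243, 205 and 138 at ZT0 and 80.5, 305 and 246 at ZT12 in TG. A read within Neb may also belong to 4930573O16Rik, which overlaps it on the other strand and which an unstranded library cannot separate. Tnnc2, the fast troponin C gene with a transcript of 684 bases, went the other way, at 18769.6, 15493 and 18769.5 TPM at ZT0 and 16781, 17198 and 19834 at ZT12 in WT, and 16491, 18711 and 19148 at ZT0 and 23588, 15104 and 17139 at ZT12 in TG. The level of Tnnc2 was 112 times that of Ttn in TG ZT12 replicate 2 and 680 times in TG ZT12 replicate 1.

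Des, Pdlim7 and Tmod4 were the steadiest members, with standard deviations within groups of 0.068, 0.077 and 0.077 on the log2 scale. The median over the 43 members was 0.22, beside 0.24 over all 10415 genes tested.

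Genes of the thin filament held the largest share of the members' signal, 18.0% to 23.3% of the listed TPM for 11 genes. Acta1, the skeletal muscle actin, was the highest gene of the whole table. It was at 21711, 22229 and 23518 TPM at ZT0 and 25119, 23733 and 23756 at ZT12 in WT, and 23600.2, 23097 and 24313 at ZT0 and 20822, 27309.9 and 23873 at ZT12 in TG, with its lowest and highest value both in TG ZT12. The WT ZT12 values were all above the WT ZT0 values, by little. Tnnt3, which encodes the fast troponin T that ties the troponin complex to tropomyosin, was at 18999, 16781 and 19288 TPM at ZT0 and 18375, 16882 and 17656 at ZT12 in WT, and 18401, 18452 and 19821 at ZT0 and 19175, 16344 and 18796 at ZT12 in TG. Its 12 values lay within 1.21-fold of each other, and TG and WT overlapped at each time. Tnnt3 overlaps Prr33 on the other strand, at a mean of 77.7 TPM. The other fast troponin genes, Tnni2 (the inhibitory subunit) and Tnnc2 (the calcium sensor), ranged from 10149.9 to 16716 and from 15104 to 23588 TPM. Both were highest in TG ZT12 replicate 1. The tropomyosin genes differed in level, Tpm1 at a mean of 17129 TPM and Tpm2 at 1366 TPM, and reads of these related genes may be partly shared. Tmod1 and Tmod4, which cap the pointed end of the filament, and Lmod2 and Lmod3, which help it elongate there, had means of 125, 317, 31.4 and 55.3 TPM.

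The 6 thick filament genes held 5.32% to 6.88% of the listed TPM. Mylpf, the fast regulatory light chain of myosin, was at 11707, 9985 and 13025 TPM at ZT0 and 11709, 12004 and 13895 at ZT12 in WT, and 11795, 12413 and 12838 at ZT0 and 15332, 10248 and 12365 at ZT12 in TG. Its highest value, like those of Tnni2 and Tnnc2, was in TG ZT12 replicate 1, and the groups overlapped. Myl1 encodes the fast essential light chains and was at 6871, 5426 and 7357 TPM at ZT0 and 6252, 7068 and 7389 at ZT12 in WT, and 6708, 6528 and 7040.1 at ZT0 and 7370.2, 6557 and 7489 at ZT12 in TG. WT ZT0 replicate 2 had its lowest value, and no group stood apart. Myh4, the myosin heavy chain of type 2B fibres, was at 6906, 6584 and 6769 TPM at ZT0 and 5908, 6409 and 5823 at ZT12 in WT, and 7473, 6723 and 6191 at ZT0 and 4226, 8003 and 7947 at ZT12 in TG. Its WT ZT12 values were all below its WT ZT0 values, while TG ZT12 held both the lowest and the highest of the 12. Myh1, the heavy chain of type 2X fibres, lies beside Myh4 on chromosome 11 and was at 172, 209 and 173 TPM at ZT0 and 144, 289 and 147 at ZT12 in WT, and 227, 125 and 189 at ZT0 and 144, 351 and 186 at ZT12 in TG. WT ZT12 replicate 2 and TG ZT12 replicate 2 had the highest levels, at 289 and 351 TPM, and the next was TG ZT0 replicate 1 at 227 TPM. These heavy chain genes are close relatives and may share reads. Mybpc2 and Mybpc1 encode the fast and the slow myosin-binding protein C, which bridges thick and thin filaments. Mybpc2 was at 1462, 1509.9 and 1438 TPM at ZT0 and 1552, 1428 and 1576 at ZT12 in WT, and 1499.6, 1524 and 1346 at ZT0 and 1252, 1773 and 1908 at ZT12 in TG. Mybpc1 was at 149, 187 and 131 TPM at ZT0 and 187, 243 and 157 at ZT12 in WT, and 189, 158 and 139.6 at ZT0 and 138, 274 and 100.1 at ZT12 in TG. TG ZT12 held the lowest and the highest value of each.

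Among the 5 titin and M-band genes, Myom2 and Myom1 were highest. Both encode myomesins, the cross-links between thick filaments at the M-band. Myom2 was at 303, 302 and 289 TPM at ZT0 and 258, 315 and 272 at ZT12 in WT, and 326, 295 and 246 at ZT0 and 183, 382 and 339.8 at ZT12 in TG. Myom1 was at 257, 294 and 263 TPM at ZT0 and 273, 257 and 232 at ZT12 in WT, and 282, 283 and 227 at ZT0 and 178, 336 and 299 at ZT12 in TG. For each, TG ZT12 spanned more than the range of the other 9 libraries. Myom3, the myomesin reported mainly in slower fibres, was the lowest member of all, at 3.26, 4.86 and 2.29 TPM at ZT0 and 4.61, 6.17 and 5.05 at ZT12 in WT, and 4.43, 3.5 and 3.05 at ZT0 and 2.56, 7.79 and 2.93 at ZT12 in TG. Within WT the times overlapped only between 4.61 and 4.86 TPM, and in TG the ZT0 libraries lay within the range of the ZT12 libraries. Obsl1, a titin-binding relative of obscurin, ranged from 8.06 to 15.5 TPM.

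The 13 Z-disc genes held 2.12% to 2.56% of the listed TPM. Actn3, the alpha-actinin of fast fibres, was highest, at 3567, 4308 and 3680.2 TPM at ZT0 and 4098, 3314 and 3726 at ZT12 in WT, and 3802, 3981 and 3378 at ZT0 and 2862, 4004 and 3959.9 at ZT12 in TG. Its groups overlapped, with the lowest value in TG ZT12 replicate 1. Actn2, the alpha-actinin present in all fibres, was at 99.5, 123 and 96.9 TPM at ZT0 and 128, 177 and 124 at ZT12 in WT, and 135, 96.7 and 115 at ZT0 and 102, 199 and 114 at ZT12 in TG. The same pair of ZT12 libraries, replicate 2 of WT and of TG, had its highest levels. Tcap encodes telethonin, a small protein that caps titin at the Z-disc, and is described with the day-night comparison, as are Pdlim3 and Pdlim5. Myoz1 and Myoz3 encode calsarcins, which bind alpha-actinin and calcineurin. Myoz1 was at 1621, 1448 and 1701 TPM at ZT0 and 1540.2, 1387 and 1456 at ZT12 in WT, and 1593, 1558 and 1625 at ZT0 and 1427, 1419 and 1601 at ZT12 in TG. Myoz3 was at 92.9, 91.5 and 91.7 TPM at ZT0 and 88.7, 98.2 and 90 at ZT12 in WT, and 95, 87.2 and 81.7 at ZT0 and 71.7, 105 and 92.7 at ZT12 in TG. Both genes kept within 1.5-fold over all 12 libraries.

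Ldb3, the gene of the Z-disc protein ZASP or Cypher, was at 705, 759 and 700.3 TPM at ZT0 and 799, 844 and 786 at ZT12 in WT, and 778, 716 and 655 at ZT0 and 525, 906 and 793 at ZT12 in TG. All 3 WT ZT12 values were above the WT ZT0 values, while TG ZT12 spanned both. Pdlim7, a PDZ and LIM domain protein, was at 333, 343 and 346 TPM at ZT0 and 357, 337 and 361 at ZT12 in WT, and 345, 295 and 323 at ZT0 and 321, 359 and 336 at ZT12 in TG. A microRNA gene, Mir6945, lies within it on the same strand. Synpo2 (myopodin) was at 49.9, 73.9 and 48.1 TPM at ZT0 and 61.3, 51.6 and 42.3 at ZT12 in WT, and 62.7, 56.7 and 34.3 at ZT0 and 21.3, 60 and 51.4 at ZT12 in TG. The other Z-disc members ranged as follows over the 12 libraries. Myot, encoding the actin cross-linker myotilin, lay between 305 and 479 TPM. Mypn, whose product myopalladin binds nebulin and alpha-actinin, lay between 31.4 and 78.2 TPM, and Synpo2l between 33.7 and 61.7 TPM. Each of these was lowest in TG ZT12 replicate 1.

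The 4 linker genes tie Z-discs to each other, to the membrane and to the tendon junction. Des, the intermediate filament desmin, was at 1104, 1032 and 1044 TPM at ZT0 and 1181, 1007 and 1099.7 at ZT12 in WT, and 1104, 1108 and 1067 at ZT0 and 1034, 1092 and 1041 at ZT12 in TG. Its 12 values stayed within 1.17-fold. Des and Unc45b are each overlapped on the other strand, by Gm15179 (mean 16.9 TPM) and Slfn5os (mean 38.2 TPM). Xirp2, an actin-binding protein with Xin repeats, has a transcript of 11958 bases and was at 204, 311 and 233 TPM at ZT0 and 285, 221 and 225 at ZT12 in WT, and 268, 250.4 and 155 at ZT0 and 136, 324 and 239 at ZT12 in TG. Its values followed transcript length, lowest in TG ZT12 replicate 1 and TG ZT0 replicate 3. Flnc, the muscle filamin, ranged from 24.9 to 75.1 TPM, and Xirp1 from 8.71 to 33.4 TPM, in both cases from TG ZT12 replicate 1 to TG ZT12 replicate 2.

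Smyd1, a muscle methyltransferase that acts with the myosin chaperone Unc45b in thick filament assembly, was at 153, 168 and 162 TPM at ZT0 and 155, 184 and 157 at ZT12 in WT, and 169, 165 and 150.1 at ZT0 and 104, 207 and 182 at ZT12 in TG. Unc45b was at 82.6, 80.6 and 73.4 TPM at ZT0 and 86.3, 89.6 and 82 at ZT12 in WT, and 86, 78.8 and 76 at ZT0 and 63.3, 104 and 86.5 at ZT12 in TG. For both genes the lowest and the highest library belonged to TG ZT12. Fhl1 and Fhl3 encode scaffold proteins built of LIM domains. Fhl1 was at 240.5, 252 and 212 TPM at ZT0 and 275, 328 and 290.4 at ZT12 in WT, and 262, 214 and 182 at ZT0 and 219, 340.3 and 144 at ZT12 in TG. Fhl3 was at 129, 130.1 and 154 TPM at ZT0 and 113, 148 and 139 at ZT12 in WT, and 136, 118 and 129.8 at ZT0 and 108, 177 and 124 at ZT12 in TG. The lowest Fhl1 value was in TG ZT12 replicate 3, and the highest was in TG ZT12 replicate 2. In TG ZT12 replicate 3 the correlation with length over the members was 0.25, and 11 of the 13 members over 4500 bases were above their own mean.

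Between TG and WT at ZT0, limma's moderated test with Benjamini-Hochberg adjustment over 10415 genes called 0 of the 43 members, and 0% of all genes (0 of 10415). At an unadjusted p under 0.05 there were 0 members and 117 genes. The log2 differences of the members, TG minus WT on log2(TPM + 1), ran from -0.19 for Neb to 0.11 for Actn2. Their median was -0.014, with 21 of 43 above 0, beside a median of -0.10 over all genes. The median listed gene was at 9.26 TPM in WT ZT0 replicate 2, against 4.96 to 7.25 TPM in the other libraries. With median-of-ratios scaling the medians at ZT0 were 0.10 for the members and -0.0020 for all genes. The members of smallest p were Pdlim7 at -0.088 (SE 0.089, n = 3 per group), Tmod1 at 0.083 (SE 0.12) and Pdlim3 at 0.07 (SE 0.10), each with an adjusted p of 0.998. Tmod1 was at 125, 119 and 119 TPM at ZT0 and 121, 125 and 119 at ZT12 in WT, and 138, 124 and 123 at ZT0 and 106, 149 and 129 at ZT12 in TG, which shows no separation of TG from WT at either time. Tmod1 is overlapped on the other strand by Tstd2, at a mean of 51.0 TPM. By 95% intervals, 31 of the 43 members were bounded within 1.5-fold at ZT0 and 41 within 2-fold.

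At ZT12 the same test called 0 members and 0% of all genes, with 0 members and 99 genes at an unadjusted p under 0.05. Fhl1 had the smallest p among members, at a log2 difference of -0.43 (SE 0.24, 95% interval -0.96 to 0.10, limma adjusted p = 1). Without TG ZT12 replicate 3 it was -0.12. Myom3 followed at -0.33 (SE 0.31) and Ldb3 at -0.16 (SE 0.16). Without TG ZT12 replicate 1 those values were -0.087 and 0.066, so the sign for Ldb3 rested on that library. The median of the members was -0.030, with 18 of 43 above 0, beside -0.073 over all genes, and 30 members were bounded within 1.5-fold. Leaving out TG ZT12 replicate 1 turned the members' median to 0.099.

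Over both times, 6 TG against 6 WT libraries, 0 members and 0% of all genes were called, with 0 members and 166 genes at an unadjusted p under 0.05. The added power narrowed the intervals: 35 of 43 members were bounded within 1.5-fold and 43 within 2-fold. Bounds were tightest for Tmod4, at a log2 difference of 0.049 (95% interval -0.079 to 0.18), and for Des at -0.0032 (-0.13 to 0.13). Widest was Neb, at -0.12 (-0.71 to 0.47). The smallest p belonged to Fhl1 at -0.27 (SE 0.17), Pdlim7 at -0.072 (SE 0.059) and Synpo2 at -0.25 (SE 0.23), all with a limma adjusted p of 0.929. The value for Fhl1 was -0.12 without TG ZT12 replicate 3 and -0.39 without TG ZT12 replicate 2. That for Pdlim7 was -0.043 without TG ZT0 replicate 2, and that for Synpo2 was -0.047 without TG ZT12 replicate 1. Synpo2 was at 0.066 once TG ZT12 replicate 1 and WT ZT0 replicate 2, the libraries with the steepest slopes at their times, were left out. For 0 of the 43 members did the 6 TG libraries not overlap the 6 WT libraries, a separation found in 0.0384% of all genes. By role, medians were 0.035 for the thin filament (7 of 11 above 0), 0.050 for the thick filament (5 of 6), -0.0077 for titin and the M-band (2 of 5), -0.042 for the Z-disc (4 of 13), -0.12 for the linkers (0 of 4), -0.020 for the chaperone and methyltransferase pair (0 of 2) and -0.16 for the LIM scaffold genes Fhl1 and Fhl3 (0 of 2).

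These signs depend on how libraries are scaled to each other. With median-of-ratios factors in place of TPM, the members' median over both times was 0.074, with 36 of 43 above 0, and the median over all genes was -0.0021. Calls stayed at 0 members and 0 genes. Single members lay farther from 0 than their median, from -0.27 for Fhl1 to 0.071 for Tmod1 with TPM, and from -0.17 to 0.17 with median-of-ratios factors.

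**Figure D3:**
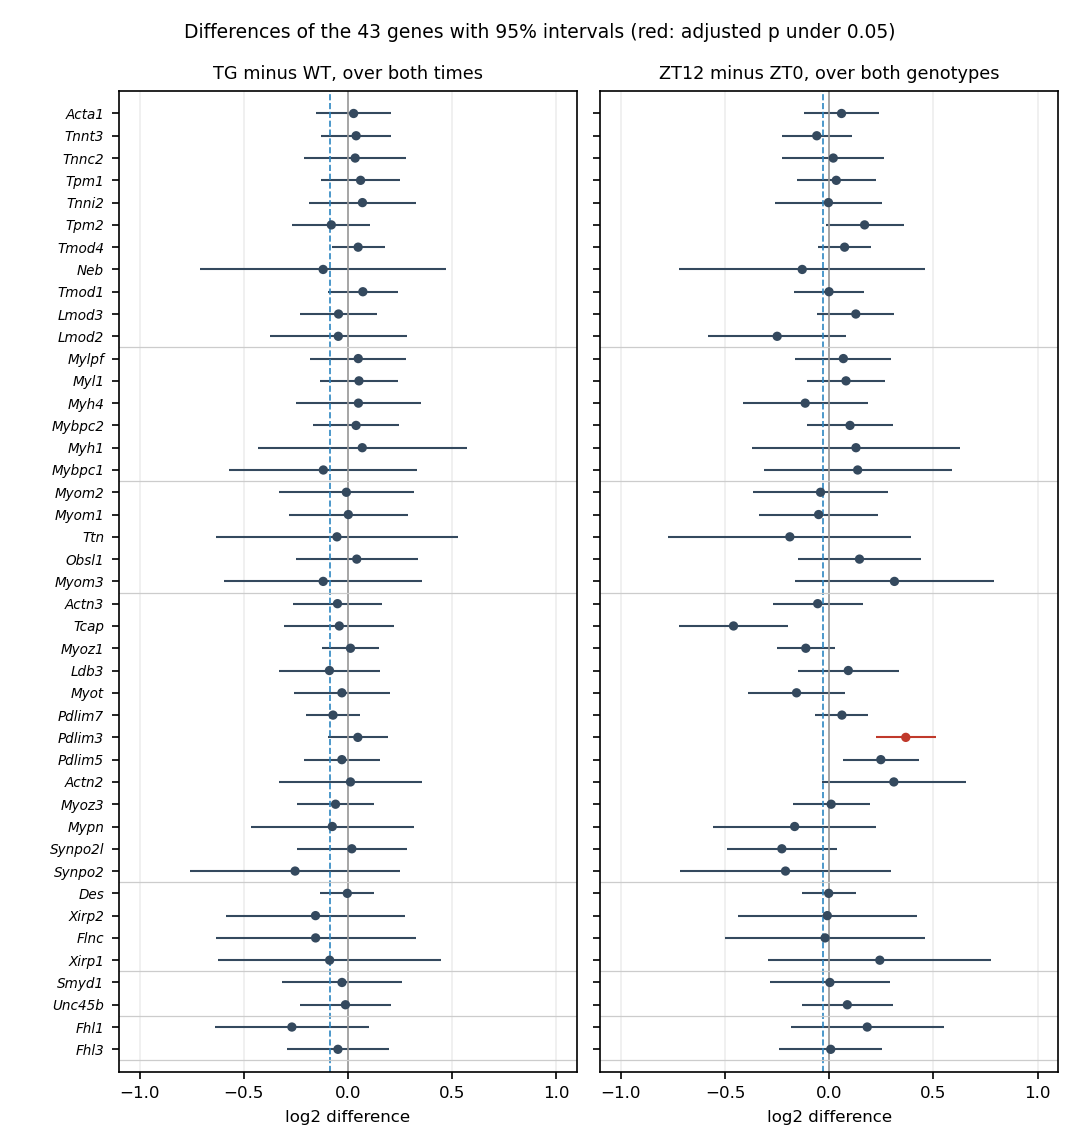
Log2 difference of each member with its 95% interval, TG minus WT over both times (left) and ZT12 minus ZT0 over both genotypes (right), 6 libraries a side; the dashed line is the median of all 10415 genes (-0.089 and -0.032), and red marks an adjusted p under 0.05. Every interval on the left spans 0, and on the right only Pdlim3 is red.

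No member differed between genotypes in its day-night difference by the interaction term (0 of 43 called, 0% of all genes, with 0 members and 69 genes at an unadjusted p under 0.05). The members of smallest p were Myom3 at -0.42 (SE 0.44), Fhl1 at -0.32 (SE 0.34) and Mybpc1 at -0.36 (SE 0.42), each with a limma adjusted p of 1.00. Without TG ZT12 replicate 3 the values for Fhl1 and Mybpc1 were -0.013 and -0.043, and without TG ZT12 replicate 1 that for Myom3 was -0.18. This is the comparison with the widest intervals, and 34 of 43 members were bounded within 2-fold.

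From ZT0 to ZT12 within WT, 0 members were called, beside 0.115% of all genes (12 of 10415), with 2 members and 484 genes at an unadjusted p under 0.05. Within TG, 0 members were called, beside 0.154% (16 of 10415), with 2 members and 368 genes at an unadjusted p under 0.05. Over both genotypes, with 6 libraries a side, 1 of 43 members was called, beside 1.02% of all genes (106 of 10415, 42 higher and 64 lower at ZT12). A single call among 43 is near that background and is no result about the list as a whole. With 3 members and 765 genes at an unadjusted p under 0.05, the members' median was 0.0093 (24 of 43 above 0) and that of all genes -0.032.

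Pdlim3 (NM_016798, chr8:45885485-45919546, plus strand, mm10) is the called member. It encodes ALP, the actinin-associated LIM protein, which binds alpha-actinin at the Z-disc. It was at 239.9, 227 and 229.9 TPM at ZT0 and 299, 302 and 313 at ZT12 in WT, and 233, 244 and 255 at ZT0 and 274, 304 and 356 at ZT12 in TG. All 6 ZT12 libraries were above all 6 ZT0 libraries, in both genotypes. Pdlim3 was the single member of which this held, and 1.53% of all genes did not overlap by time. Group means were 232 ± 6.75 and 305 ± 7.3 TPM in WT at ZT0 and ZT12 (SD, n = 3), and 244 ± 10.8 and 312 ± 41.6 TPM in TG. Over both genotypes the log2 difference was 0.37 (SE 0.067, 95% interval 0.22 to 0.51, limma adjusted p = 0.0164). It was 0.39 (limma adjusted p = 0.287) in WT alone and 0.34 (adjusted p = 0.563) in TG alone, and the interaction was -0.045 (SE 0.14).

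The call is near the threshold while the size of the difference holds. The adjusted p was 0.098 with median-of-ratios scaling, 0.081 with upper-quartile scaling, 0.058 with the length trend taken out of each library, and 0.050 to 0.053 without WT ZT0 replicate 3, TG ZT0 replicate 1, WT ZT12 replicate 2 or WT ZT12 replicate 3. Over those and every other setting run the log2 difference lay between 0.33 and 0.41.

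The RefSeq window of the 250 bases before the transcription start of Pdlim3 is shown because it belongs to the one called member, and was chosen after the values were seen. It spans chr8:45885237-45885486 on the plus strand of GRCm38.p6. Its end lies just past the start of Pdlim3 given above (45885485), so the RefSeq start used here differs slightly from that one. The window is read 5′ to 3′, with E-boxes of the form CANNTG in capitals.
Pdlim3: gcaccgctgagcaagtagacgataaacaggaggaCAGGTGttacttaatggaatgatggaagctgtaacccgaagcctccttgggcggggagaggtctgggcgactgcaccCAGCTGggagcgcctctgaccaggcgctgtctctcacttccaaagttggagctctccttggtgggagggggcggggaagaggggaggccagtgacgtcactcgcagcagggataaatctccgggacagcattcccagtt
The E-boxes begin 216 and 139 bases before the start. No CACGTG, TTATGTAA (a form of the D-box), AGGTCA, CArG box or MEF2 element was found in the window on either strand. Other forms of the D-box were not searched, so this does not show that sites for E4BP4 are absent. Windows were present for 32 of the 43 members, and CANNTG, of which CACGTG is a special case, occurred in 25 of the 32 (78.1%) and in 69.3% of the 27025 genes with a window. CACGTG occurred in 2 of 32 and in 6.86% of genes, AGGTCA in 4 and in 15.8%, and TTATGTAA in 0 and in 0.977%. A CArG box, the site of serum response factor, occurred in 5 of 32 (Acta1, Fhl1, Ldb3, Myh4 and Myom1) and in 1.62% of genes. A MEF2 element occurred in 7 (Myh1, Myh4, Myom3, Synpo2, Synpo2l, Ttn and Xirp2) and in 1.99% of genes. A match of letters describes the window and is no evidence of binding.

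Tcap (chr11:98383811-98384953, plus strand) had the opposite direction. It was at 3552, 2835 and 3449 TPM at ZT0 and 2693, 2244 and 2158 at ZT12 in WT, and 3196, 3034 and 3208 at ZT0 and 3134, 1770.3 and 2208 at ZT12 in TG. The 3 WT ZT12 values and 2 of the 3 TG ZT12 values lay below all 6 ZT0 values, and TG ZT12 replicate 1 lay among them. Over both genotypes the log2 difference was -0.46 (SE 0.12, 95% interval -0.72 to -0.20, limma adjusted p = 0.127), the largest in size of any member. It was -0.47 in WT and -0.45 in TG. Its transcript has 944 bases. Without TG ZT12 replicate 1 the difference was -0.56 (limma adjusted p = 0.0082), and without TG ZT12 replicate 2 it was -0.38 (limma adjusted p = 0.196). Within TG the same steps gave -0.67 and -0.26. Leaving out any other single library kept the adjusted p over both genotypes between 0.0938 and 0.316. With the length trend taken out of every library it was -0.49 (limma adjusted p = 0.0061), under which Tcap was the 1 member called of 43, beside 1.43% of all genes (149 of 10415). Both Tcap and Pdlim3 were called with the replicate block, and neither with median-of-ratios or upper-quartile scaling. Removing the trend was a step chosen after the pattern was seen.

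Pdlim5, whose product ENH also binds alpha-actinin and protein kinases, was at 159, 139.9 and 161 TPM at ZT0 and 172, 192 and 185 at ZT12 in WT, and 169, 136 and 148 at ZT0 and 168, 213 and 159 at ZT12 in TG. The ZT12 values reached higher, and the 2 times overlapped between 159 and 169 TPM. Over both genotypes the log2 difference was 0.25 (SE 0.084, limma adjusted p = 0.328), with 0.25 in WT and 0.24 in TG. The other 40 members had log2 differences between -0.25 for Lmod2 and 0.31 for Myom3. By role the medians were 0.019 for the thin filament (6 of 11 above 0), 0.090 for the thick filament (5 of 6), -0.042 for titin and the M-band (2 of 5), -0.055 for the Z-disc (6 of 13), -0.0060 for the linkers (1 of 4), 0.045 for the chaperone and methyltransferase pair (2 of 2) and 0.095 for the LIM scaffold genes Fhl1 and Fhl3 (2 of 2). By 95% intervals 34 members were bounded within 1.5-fold and 43 within 2-fold. The median half-width of the intervals was 0.25, and those of Acta1 and Tnnt3 were narrower, with Acta1 at 0.059 (-0.12 to 0.24) and Tnnt3 at -0.06 (-0.23 to 0.11).

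**Figure D4:**
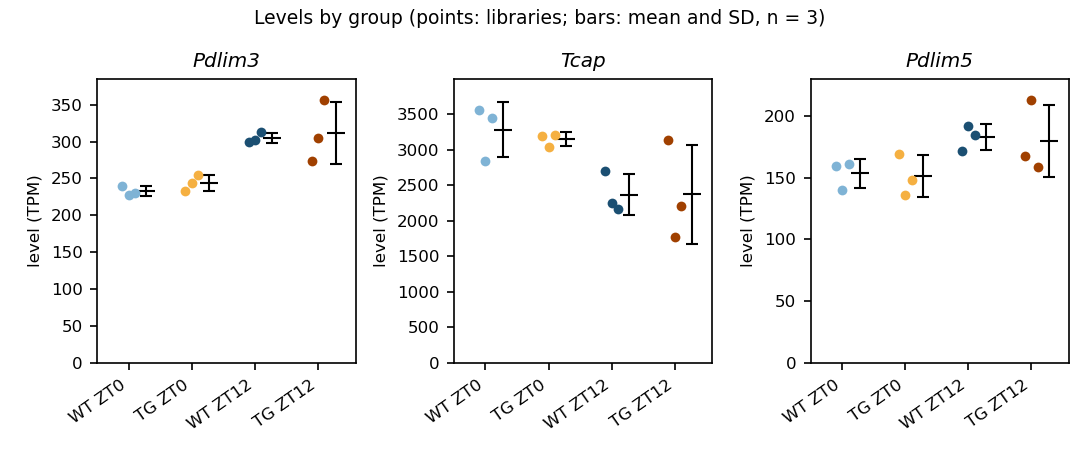
Levels of Pdlim3, Tcap and Pdlim5 (TPM, axes from 0) by group, 1 point per library, with the mean and SD of 3 libraries beside them. Pdlim3 runs from 227 to 255 TPM at ZT0 and from 274 to 356 TPM at ZT12; in Tcap the TG ZT12 point at 3134 TPM lies among the ZT0 values of 2835 to 3552 TPM; Pdlim5 overlaps between times.

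Ratios of related members within a library do not depend on how libraries are scaled. Where the paired transcripts differ in length, a ratio can still carry the length pattern. Ratios were compared by exact two-sided permutation of library labels within strata (400 assignments, smallest possible p 0.005, 10 tests adjusted together). The level of Myh4 over Myh1, the balance of the 2B and 2X myosins, was 40.1, 31.4 and 39.2 at ZT0 and 41.1, 22.2 and 39.6 at ZT12 in WT, and 32.9, 53.7 and 32.7 at ZT0 and 29.4, 22.8 and 42.6 at ZT12 in TG. Actn3 over Actn2 was 35.9, 35.1 and 38 at ZT0 and 32.1, 18.7 and 30.1 at ZT12 in WT, and 28.3, 41.2 and 29.2 at ZT0 and 28.1, 20.1 and 34.6 at ZT12 in TG. In both ratios WT ZT12 replicate 2 and TG ZT12 replicate 2 were the lowest of the 12 libraries, and TG ZT0 replicate 2 was the highest. Both ZT12 libraries were also the lowest for Mybpc2 over Mybpc1, which was 9.81, 8.06 and 11 at ZT0 and 8.3, 5.88 and 10.1 at ZT12 in WT, and 7.95, 9.62 and 9.64 at ZT0 and 9.04, 6.47 and 19.1 at ZT12 in TG, and for Myoz1 over Myoz3, which ranged from 13.5 to 19.9. The transcripts of Myoz1 and Myoz3 have 1286 and 3388 bases. Their ratio was highest in TG ZT12 replicate 1 and lowest in TG ZT12 replicate 2, the libraries with the steepest falling and rising slopes over length. The part of length in that ratio was not tested. The single high value of Mybpc2 over Mybpc1, 19.1, was in TG ZT12 replicate 3, where Fhl1 was lowest. Myom2 over Myom3 ranged from 49.0 to 126, and its 3 WT ZT12 values (51.1 to 55.8) were below all WT ZT0 values (62.2 to 126).

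No ratio passed. The smallest p was that of Actn3 over Actn2 at ZT12 against ZT0, a log2 difference of -0.37 (exact permutation p = 0.08, adjusted p = 0.625), followed by Myom2 over Myom3 at -0.42 (exact permutation p = 0.125, adjusted p = 0.625). For TG against WT the 5 log2 differences lay between -0.062 and 0.16, with exact permutation p-values from 0.47 to 0.965. Beside the pair of libraries with low ratios, 9 slow-fibre counterparts, without Actc1, summed to 444 TPM in WT ZT12 replicate 2 and to 676 TPM in TG ZT12 replicate 2, within the range of 189 to 912 TPM over all 12. Myh2, the heavy chain of type 2A fibres and no member, had its highest levels in the same pair, at 142 and 128 TPM, against 42.0 to 95.5 TPM in the other 10 libraries. Its lowest level, 42.0 TPM, was in TG ZT12 replicate 3, the library with the high Mybpc2 over Mybpc1. The 9 slow-fibre counterparts summed to 298 TPM there. The part of either in the ratios was not tested.

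**Figure D5:**
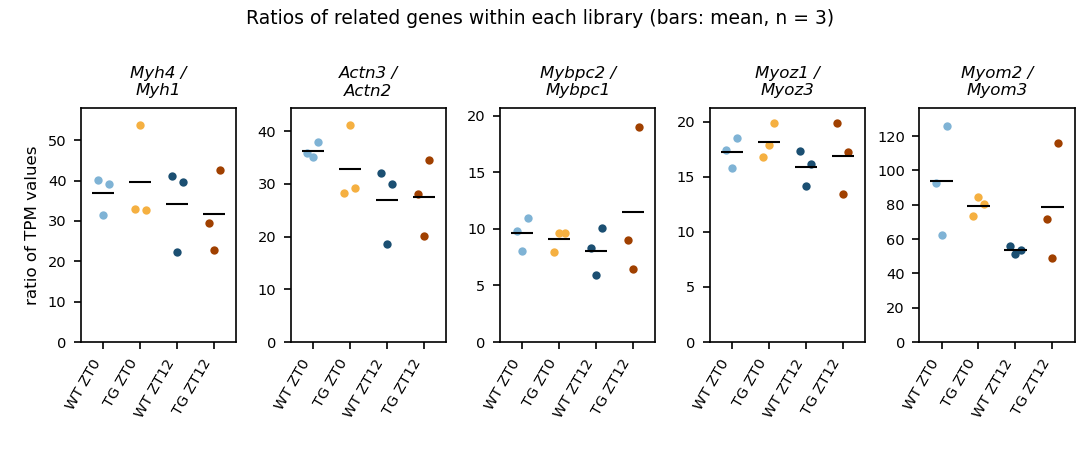
Ratio of TPM values of 5 pairs of related members within each library (axes from 0), 1 point per library and a bar at the mean of 3. The 12 values of a pair range widely, with Actn3 over Actn2 from 18.7 to 41.2 and Myom2 over Myom3 from 49.0 to 126.

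Other genes of the sarcomere that are not members were counted from a separate list, of which 40 of 42 were in the table. None was called between TG and WT at either time or over both. Between times, over both genotypes, 2 rose at ZT12 and 1 fell, of 40 tested, beside 1.02% of all genes. This list and those below were chosen with earlier results of these data known. Their shares of calls are therefore no independent test against that background. Ankrd23, a stretch-linked ankyrin repeat protein that binds titin, was at 964, 1037 and 824 TPM at ZT0 and 1760.4, 1611 and 1442 at ZT12 in WT, and 1069, 979 and 839 at ZT0 and 1132, 1509 and 1384 at ZT12 in TG, a log2 difference of 0.62 (SE 0.10, limma adjusted p = 0.0088). Its 6 ZT12 values were all above its ZT0 values. Mylk4, a myosin light chain kinase, was at 445, 488 and 423 TPM at ZT0 and 196, 196 and 144 at ZT12 in WT, and 486, 423 and 377 at ZT0 and 132, 259 and 242 at ZT12 in TG, a log2 difference of -1.21 (SE 0.15, limma adjusted p = 0.0016), with no overlap between times. Ankrd1, of the same family as Ankrd23, was between 0.654 and 5.12 TPM, with a log2 difference of 0.94 (SE 0.18, limma adjusted p = 0.0219). Slow-fibre counterparts of the members, 10 of 11 in the table, had 0 called, and all 10 had log2 differences above 0 at ZT12 over both genotypes (median 0.37), against which their standard errors of 0.145 to 0.512 were large. Actc1, the cardiac actin gene, is among the 10 and is not particular to slow fibres, so it was left out of the sums above. Of 26 regulators of sarcomere genes, 25 were in the table and 23 tested. Myod1, the myogenic factor, was the 1 called of 23, beside the same 1.02%, and fell by 1.19 on the log2 scale (SE 0.20, limma adjusted p = 0.0092).

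In the authors' deposited tables of TG against WT, no member had an unadjusted p under 0.05 at ZT0 or at ZT12. Their log2 fold changes for the 43 members ran from -0.038 to 0.13 at ZT0 and from -0.10 to 0.11 at ZT12, a narrower range than in the fits above.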

How the data were processed

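Polyadenylated RNA of 12 gastrocnemius libraries was measured. The authors deposited TPM per gene and, per time, tables of log2 fold changes and p-values; STAR, HOMER 4.11.1 and DESeq2 are named in the submitters' processing notes with mm10, and HOMER's exon counting per the file headers. The table lists only genes at 1 TPM or more in WT ZT0 replicate 1. From the TPM values, log2(TPM + 1) of the 10415 genes reaching 1 TPM in 3 or more libraries was fitted with limma 3.58.1 (trend) in R 4.3.3, as 4 group means or genotype plus time, with Benjamini-Hochberg adjustment over all genes and calls under 0.05. The fit was tested on simulated data. Whole reads were recovered from TPM and transcript length (99.8% to 100.0% of low values within 0.1 of a whole number), and no count model was the main test. Alternatives were other scalings, filters, pseudocounts, limma-voom on recovered reads, a replicate block, left-out libraries and a removed length trend (natural spline, 4 degrees of freedom, chosen after seeing the data). The members and lists were chosen with earlier results of these data known. Genes given library by library were the 2 highest of each of 7 roles, the 3 of smallest p per comparison, called members and ratio members; Ttn, Neb, Tnnc2 and the genes outside the list were chosen after their values were seen. Promoter windows were from RefSeq (GRCm38.p6), scanned in Python 3.11.15.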

Additional observations from a re-analysis of the deposited data

How the results depend on the processing

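Over 24 alternative settings per comparison at most, 0 members were called for every comparison between genotypes and for the interaction. Over both genotypes the number of members called at ZT12 against ZT0 was 1, but 0 with median-of-ratios and with upper-quartile scaling, and 2 (Pdlim3 and Tcap) with the replicate block and after dropping both TG ZT12 replicate 1 and WT ZT0 replicate 2, and 0 to 2 when 1 library was left out. Within TG it was 1 (Tcap, -0.67) without those 2 libraries, under which the members' median was 0.17 (with 1 library left out, -0.11 to 0.17). Signs turned for Pdlim7 between genotypes with median-of-ratios and upper-quartile scaling (0.026 and 0.038 at ZT0, 0.031 and 0.027 over both times), for Ldb3 at ZT12 (0.066 without TG ZT12 replicate 1, alone or with WT ZT0 replicate 2, and -0.33 at the other end with 1 library left out) and for Synpo2 over both times (0.066 without both, and -0.37 to -0.047 with 1 left out). With 1 library left out the log2 ratio for TG against WT ranged from -0.16 to 0.087 for Myh4 over Myh1, -0.185 to 0.043 for Actn3 over Actn2, -0.061 to 0.33 for Mybpc2 over Mybpc1 and -0.017 to 0.29 for Myom2 over Myom3, and for ZT12 against ZT0 from -0.26 to 0.13 for Mybpc2 over Mybpc1. The cause of these changes was not tested. The count of all genes called moved more: over both genotypes from 106 to between 70 and 160 with 1 library left out, 233 and 220 with the 2 scalings, 217 with limma-voom and 464 without the 2 libraries; within WT from 12 to between 4 and 35, 55, 47, 56 and 73; within TG from 16 to between 6 and 21, 31, 29, 28 and 71, and 3 when its groups were fitted alone. Within WT 22 were called with the length trend removed. Whether same-numbered libraries pair was not settled. The correlations of their deviations over 18 pairs ran from -0.35 to 0.29, with a median of 0.063, beside -0.016 for different numbers. Of 12 libraries, 6 correlated best with a same-numbered one. The labels do not say what the number stands for, so the replicate block adjusts for a number only. Depth limits few of the members, whose fewest reads in a library were 180.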
